A study of Mus musculus with 22 samples.

Results

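Histone H3.3 occupancy was compared between the testes of 3Rb mice, which are heterozygous for 3 Robertsonian translocations, and those of Cg control mice. The comparison takes the libraries made with an antibody to H3.3, 3 of 3Rb and 3 of Cg, out of 22 libraries in the study, and reads the count in each 50 kb window of the mouse genome (build mm10). The 3Rb males are F1 offspring of B6.SPRET7MOLF12 and RBF/Dnj. The Cg males are B6.SPRET7MOLF12, the strain that is also one parent of 3Rb. Both groups were 6 weeks old and the tissue was testis. By its name B6.SPRET7MOLF12 is a congenic B6 line with segments of SPRET on chromosome 7 and of MOLF on chromosome 12, so those segments are on both copies in Cg and on 1 of the copies in 3Rb. A further group, 1Rb, stands beside the comparison at the same age: 3 libraries from F1 males of CBy.RBF-Rb(8.12)5Bnr/J and B6.SPRET7MOLF12, heterozygous for a single translocation. The 3Rb males differ from Cg in the translocations and in an RBF/Dnj haplotype of every autosome, and, if the cross is written mother first, in the Y but not the X, so translocation and strain cannot be told apart in this design. No input DNA of 3Rb was analysed here, and the inputs used were 1 library each of Cg at 6 weeks and of C57BL/6J (B6) and a 1Rb_M testis at 4 weeks. The 1Rb_M input is of another cross than the 1Rb libraries made with the antibody: its strain label gives C57BL/6J with CBy.RBF-Rb(8.12)5Bnr/J.

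A Robertsonian translocation joins a pair of acrocentric chromosomes at their centromeres into a single metacentric chromosome. In a heterozygote the metacentric pairs at meiosis with both unjoined partners, and the stretches next to the centromere are the ones that often pair late or incompletely. H3.3 is the replacement variant of histone H3. It is put into chromatin outside DNA replication, by the HIRA complex at active genes and by ATRX and DAXX at repeats and pericentromeric heterochromatin, and in meiotic prophase it is known to replace canonical H3 on the silenced sex chromosomes and on unsynapsed autosomal chromatin. The labels give the number of translocations in 3Rb and not the arms. RBF/Dnj is known as a strain with the fusions 1 with 3, 8 with 12 and 9 with 14, and these 6 chromosomes are called joined below. The 8 with 12 fusion is also that of the 1Rb strain name. Mouse chromosomes have the centromere at the low-coordinate end, and the first 3 Mb of each autosome hold no assembled sequence, so distance from the centromere end was counted from 3 Mb.

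The 3Rb libraries held 64482477 to 70858919 counts and the Cg libraries 41278440 to 128348440, and the median window held 652 to 2030 counts. Log2 levels of autosomal windows correlated at 0.989 to 0.990 within 3Rb, at 0.980 to 0.986 within Cg and at 0.971 to 0.979 between the groups. Cg replicate 1, the deepest library, stood apart from the other Cg libraries: the median level of windows with 3 or more protein-coding genes over that of windows with none was 1.31 on the log2 scale there, 1.14 and 1.18 in Cg replicates 2 and 3, and 1.18, 1.07 and 1.07 in the 3Rb libraries. As a check of the tissue label, H3.3 over input in Cg was ranked over autosomal windows of usual input. The median window of a spermatid gene list stood at percentile 90.1, that of meiotic prophase genes at 87.7, that of housekeeping genes at 95.8 and that of vomeronasal receptor genes, which testis is not known to express widely, at 7.10. Olfactory receptor genes stood at 23.35. Other lists of testis cells were between these, with Leydig genes at 81.5, spermatogonial genes at 76.1, Sertoli genes at 68.25 and peritubular and blood cell genes at 66.2. The labels do not say whether replicates are separate animals, so the p-values measure the spread between these libraries, which may be technical. The samples are a mixture of testis cells, so a change in H3.3 per cell and a change in the mix of cells cannot be told apart.

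Across the autosomes, H3.3 differed by small amounts in many places. Levels are CPM (counts per 1e6 counts) after scaling by edgeR's trimmed mean of M-values, differences are log2 of 3Rb over Cg from edgeR's quasi-likelihood test, and a window or bin was called at a Benjamini-Hochberg adjusted p under 0.05 over all windows or bins of all chromosomes. Of 48017 autosomal windows tested, 1526 were higher in 3Rb (3.18%) and 901 were lower (1.88%). All 3Rb libraries were above all Cg libraries in 14.3% of these windows and below them in 8.41%. The median size of a called difference was 0.23 on the log2 scale in both directions, and 99 of the higher and 88 of the lower windows passed 0.5. Scaling moved this balance: with library totals the counts were 2250 higher and 756 lower, and with factors from autosomal windows alone 1225 higher and 1116 lower, while the median of all autosomal windows lay between -0.00 and 0.02 under those scalings. Single libraries moved it too, to 941 higher and 1003 lower without Cg replicate 1, to 700 and 547 without 3Rb replicate 2 and to 767 and 590 without 3Rb replicate 3.

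As wholes, the autosomes hardly differed. Summed per chromosome, 2 of 21 chromosomes were called higher (9.52%) and 1 lower (4.76%), the last being Y. The autosomes called were 12, at 0.018 ± 0.0025 (log2 difference ± SE, adjusted p = 0.0017, edgeR), and 16, at 0.014 ± 0.0028 (adjusted p = 0.010). Chromosome 12 took 4.08% to 4.09% of scaled counts in the 3Rb libraries and 4.03% to 4.04% in the Cg libraries, without overlap. Neither call on a whole autosome held with factors from autosomal windows alone, where chromosome 12 was at 0.0037 (adjusted p = 0.39) and chromosome 16 at -0.00018 (adjusted p = 0.97), or without 3Rb replicate 1, at 0.0071 (adjusted p = 0.72) and 0.0042 (adjusted p = 0.74). Chromosome 16 was not called either without Cg replicate 1 (0.0078), Cg replicate 2 (0.014) or 3Rb replicate 2 (0.013). Windows called higher were not spread evenly. Of the windows tested they made up 6.03% on chromosome 12 (141), 5.54% on 14 (135), 5.45% on 7 (155), 5.20% on 8 (131) and 4.73% on 9 (115). On chromosomes 3 (117) and 1 (123) the shares were 3.73% and 3.20%, beside 3.18% of all autosomal windows. The other autosomes had 15 to 103 such windows each, or 0.97% to 3.54%, with 17 and 4 highest at 3.54% and 3.37%.

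Calls by position in 5 Mb bins were concentrated at the centromere end of the joined chromosomes. In 5 Mb bins counted from 3 Mb, with windows of unusual input left out, 19 of 489 autosomal bins were higher (3.89%) and 12 were lower (2.45%), and all 3Rb libraries were above all Cg libraries in 21.1% of bins and below them in 10.2%. Among the 19 first bins, the one from 3 to 8 Mb of each autosome, all 6 on joined chromosomes were called, 5 higher and 1 lower, and none of the 13 on unjoined autosomes was. The unjoined first bins ranged from -0.04 to 0.05, with a smallest adjusted p of 0.085 (edgeR), and at an unadjusted p under 0.05 there were 1 higher and 2 lower. In 3 of these 13 bins all 3Rb libraries were above all Cg libraries, and in 2 they were below. Between 8 and 23 Mb the joined chromosomes had 5 bins higher and 1 lower of 18, the unjoined autosomes 1 higher and 2 lower of 39. Beyond 23 Mb the counts were 4 and 2 of 147 on joined chromosomes and 4 and 6 of 266 on the others. Bins of 5 Mb were chosen after the data had been seen. In 10 Mb bins, which kept windows of unusual input, the first bins called were only those of 8, 3 and the unjoined 7.

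**Figure D1:**
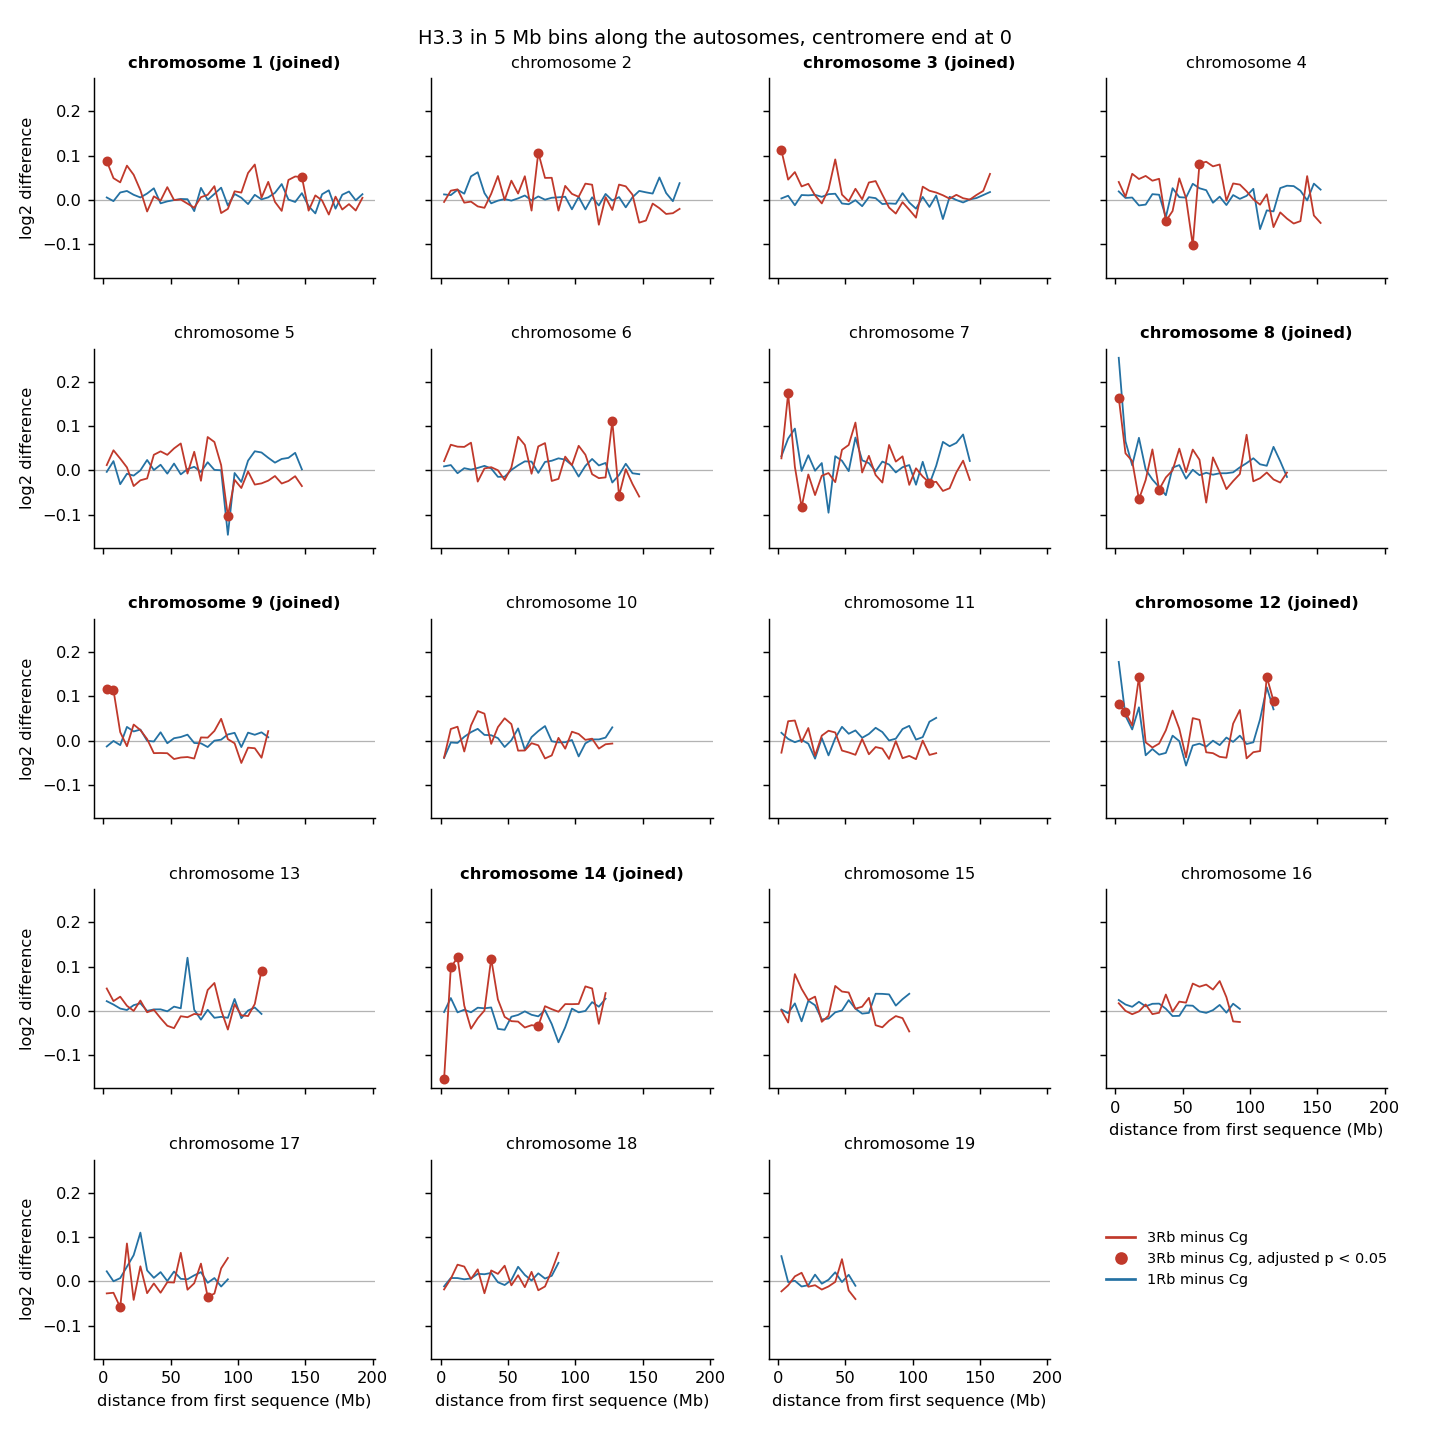
Log2 difference in H3.3 for 5 Mb bins of each autosome against distance in Mb from the first assembled sequence at the centromere end. The red line is 3Rb minus Cg with filled points at an adjusted p under 0.05, and the blue line is 1Rb minus Cg; the first point is called on all 6 joined chromosomes and on none of the 13 others.

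On chromosome 8 the first bin held 1605, 1615 and 1591 CPM in the 3Rb libraries and 1418, 1439 and 1438 CPM in the Cg libraries. All 3Rb libraries were above all Cg libraries, and the fitted difference was 0.16 ± 0.02 (log2 ± SE, adjusted p = 1.3e-04). Of its 100 windows 68 were called higher and none lower. In this first bin, the gene window with the smallest p holds Cd209e and Cd209d, C-type lectin receptors of immune cells, at 0.31 ± 0.05 (adjusted p = 4.2e-05). That of Slc10a2, the bile acid transporter of the gut, followed at 0.30 (adjusted p = 7.5e-05). Most of the first bin is poor in genes, with 72 windows that hold no protein-coding gene. From 8 to 13 Mb the bin difference was 0.04 (adjusted p = 0.31) and the groups overlapped. Farther along, the bin from 18 to 23 Mb was lower at -0.07 (adjusted p = 0.0049), with 18 windows lower and 5 higher. It holds defensin genes, antimicrobial peptides, of which the window of Defa22 was lower at -0.39, with Cg input above 1Rb_M input by 0.51, and that of Defb33 was higher at 0.23. Between them and the centromere end, a window of Dlgap2, a postsynaptic scaffold gene, was lower at -0.38.

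On chromosome 12, the partner of 8, the first bin held 1909.5, 1894 and 1876 CPM in 3Rb against 1800.5, 1782.5 and 1783 CPM in Cg. The groups did not overlap and the difference was 0.08 ± 0.01 (adjusted p = 4.9e-04). The bin from 8 to 13 Mb was higher by 0.06 ± 0.01 (adjusted p = 0.0022) and that from 18 to 23 Mb by 0.14 ± 0.02 (adjusted p = 0.0035). The gene window with the smallest p in the first bin holds Klhl29 (0.15), and those from 8 to 13 Mb hold Apob, the main protein of low-density lipoproteins, at 0.17 (adjusted p = 0.020), and Vsnl1, a neuronal calcium sensor, at 0.16 (adjusted p = 0.046). The stretch from 18 to 23 Mb is of another kind, a cluster of predicted genes such as Gm3973 (0.59) and Gm40853 (0.61), where Cg input was below 1Rb_M input by 0.41 and 0.52 on the log2 scale, so those DNA libraries differed there as well.

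On chromosomes 9 and 3 the first bin was higher too. The first bin of 9 held 1501, 1512 and 1497 CPM in 3Rb and 1343, 1399 and 1418 CPM in Cg, a difference of 0.12 ± 0.03 (adjusted p = 0.017), and the next bin was up by 0.11 ± 0.03 (adjusted p = 0.032). There were 73 windows called higher and 2 lower between 3 and 13 Mb, led by Gucy1a2, a subunit of soluble guanylate cyclase, at 0.37, Gria4, a glutamate receptor subunit, at 0.36, Cntn5, a neuronal adhesion protein, at 0.28, and Trpc6, a cation channel, at 0.25. The first bin of 3 held 1307, 1348 and 1336 CPM in 3Rb and 1202, 1258 and 1234 CPM in Cg, a difference of 0.11 ± 0.03 (adjusted p = 0.032). Of its 100 windows 84 hold no protein-coding gene, and the gene window named by p holds Hnf4g, a nuclear receptor, at 0.29.

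The first bin of chromosome 1 was higher as well, with 1368, 1405 and 1402 CPM in 3Rb against 1275, 1324 and 1330.0 CPM in Cg. The groups did not overlap, and the difference was 0.09 ± 0.02 (adjusted p = 0.040). Called gene windows included Rgs20, a regulator of G protein signalling, at 0.21 and Npbwr1, a neuropeptide receptor, at 0.21. From 8 to 23 Mb all 3Rb libraries were above all Cg libraries in each of the bins, at 0.05, 0.04 and 0.08, without a call.

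Chromosome 14 departed from the others. Its first bin was lower in 3Rb, with 1466, 1451 and 1489 CPM against 1609, 1629 and 1666 CPM in Cg, a difference of -0.15 ± 0.02 (adjusted p = 7.9e-05), and 53 of its 100 windows were lower and none higher. Its windows with the smallest p hold the predicted genes LOC108168187 (-0.44) and Gm2977 (-0.38), and only 16 windows lack a gene. Past this bin the sign turned: from 8 to 13 Mb the bin was up by 0.10 ± 0.01 (adjusted p = 0.0012) and from 13 to 18 Mb by 0.12 ± 0.02 (adjusted p = 0.0012). The gains were led by windows within Fhit, a hydrolase gene at a common fragile site, at 0.35, Lrrc3b at 0.33 and Rarb, a retinoic acid receptor, at 0.29.

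**Figure D2:**
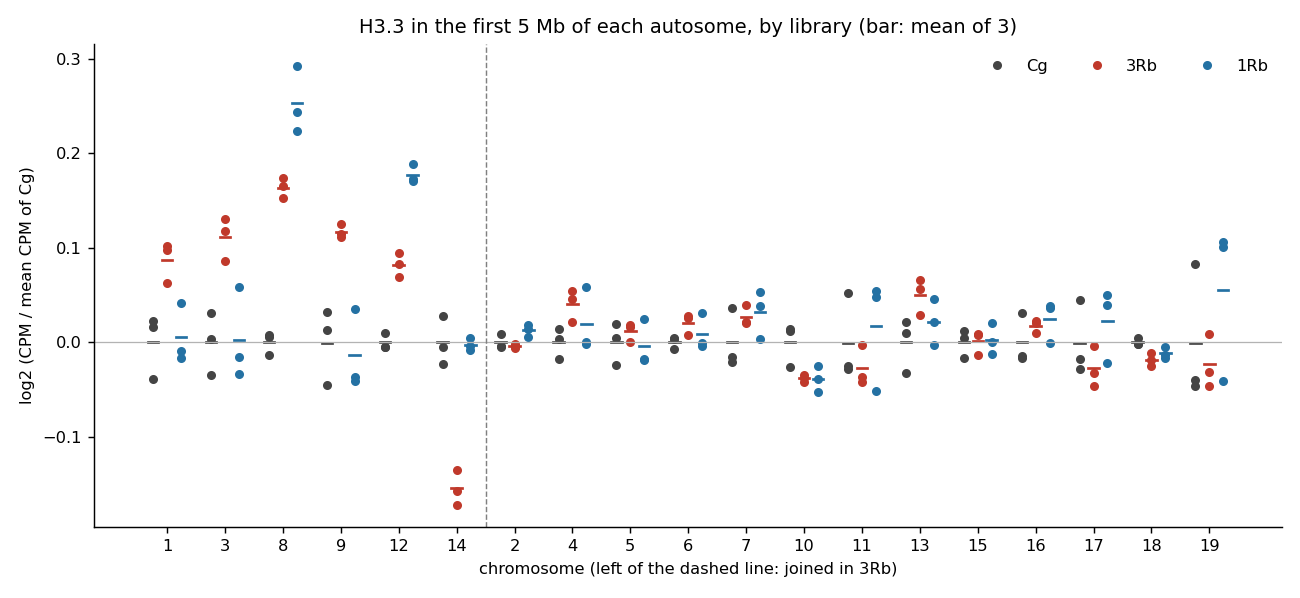
H3.3 in the first 5 Mb of each autosome (3 to 8 Mb), as log2 of the CPM over the mean of the 3 Cg libraries, with 1 point per library and a bar at the mean of 3. All 3Rb points lie above all Cg points on 1, 3, 8, 9 and 12 and below them on 14. Of the 13 autosomes to the right of the dashed line, 3 also have all 3Rb points above and 2 have them below. The fitted differences there lie between -0.04 and 0.05.

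These calls did not rest equally on all libraries. The first bins of 8 and 14 were called under every one of 9 alternatives, at 0.15 to 0.17 and -0.17 to -0.14. That of 12 was lost only when windows of unusual input were added, at an adjusted p of 0.30. The first bins of 9, 3 and 1 kept their direction under all 9, at 0.09 to 0.13, 0.09 to 0.13 and 0.06 to 0.10, and were called under 5, 4 and 2 of them, so that the first bins called higher numbered 3 without Cg replicate 1 or 3, and 2 without 3Rb replicate 2 or 3.

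The 1Rb libraries carry the fusion of 8 with 12 and not the others. Their comparison with Cg shares the Cg libraries. In the same fit, the first bin was higher in 1Rb than in Cg by 0.25 on chromosome 8 (adjusted p = 3.3e-05) and by 0.18 on 12 (adjusted p = 1.7e-05), while 1, 3, 9 and 14 lay between -0.01 and 0.01, with adjusted p of 0.989 to 0.998. Of all 489 autosomal bins 7 were higher in 1Rb (1.43%) and 6 were lower (1.23%). Tested directly against 1Rb, the first bins of 3Rb were lower on 8 by 0.09 (adjusted p = 0.0083), on 12 by 0.10 (adjusted p = 1.6e-04) and on 14 by 0.15 (adjusted p = 8.7e-05). They were higher than 1Rb on 9 by 0.13 (adjusted p = 0.0091) and on 3 by 0.11 (adjusted p = 0.048), and on 1 by 0.08 without a call (adjusted p = 0.071). Of the 489 bins 12 were higher in 3Rb than in 1Rb (2.45%) and 11 were lower (2.25%). From 3 to 8 Mb, the median Cg input over 1Rb_M input was -0.01 to 0.02 on the log2 scale on the 6 joined chromosomes. Over B6 input, Cg input was at 0.14, 0.16, 0.09, 0.10, 0.05 and -0.04 on 1, 3, 8, 9, 12 and 14. It was at 0.02 over the unjoined autosomes, with single ones from -0.08 on 17 to 0.10 on 13. The inputs compared differ in age and in strain or cross. No input of 3Rb or of the 1Rb cross used for H3.3 was analysed here, so the part of DNA content in the first bins was not tested.

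**Figure D3:**
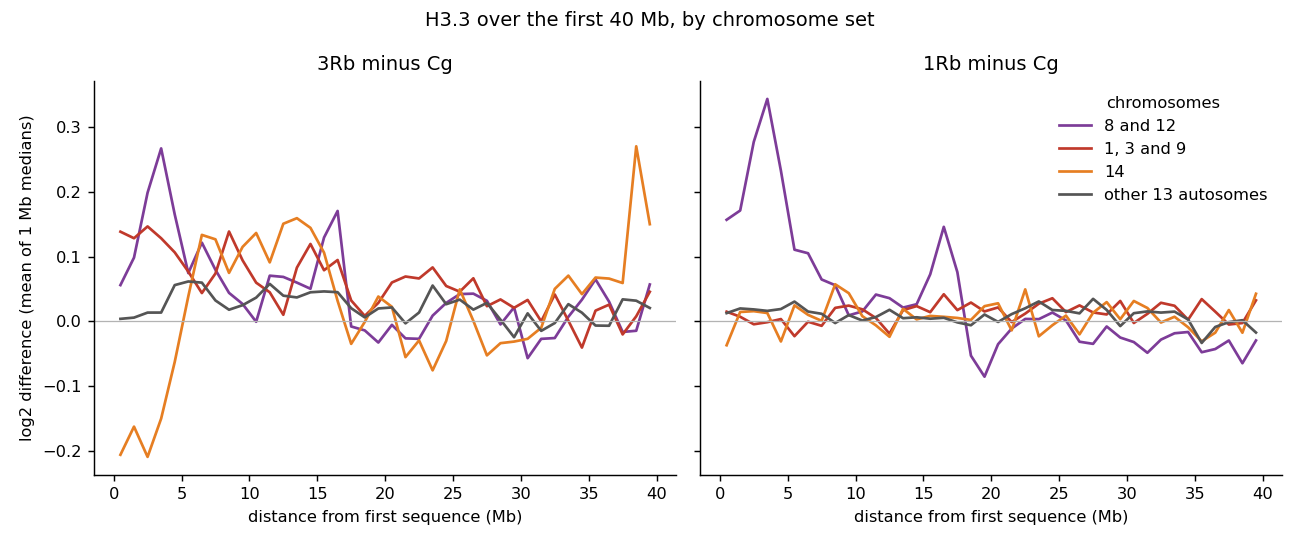
Mean over chromosomes of the median window log2 difference per 1 Mb, over the first 40 Mb from the centromere end, for 3Rb minus Cg (left) and 1Rb minus Cg (right). Chromosomes 8 and 12 rise at the centromere end in both panels, 1, 3 and 9 rise in the left panel alone, and 14 starts below 0 and crosses it in the left panel.

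By distance, the median window of 8 and 12 was at 0.16 within 5 Mb of the first sequence, 0.07 from 5 to 10 Mb, 0.04 from 10 to 20 Mb and 0.01 from 20 to 30 Mb. On 1, 3, 9 and 14 the medians were 0.09, 0.10, 0.07 and 0.03 over the same bands. The unjoined autosomes stood at 0.01, 0.03, 0.04 and 0.01. Called windows followed: within 5 Mb 50.5% of the windows of 8 and 12 and 22.0% of those of 1, 3, 9 and 14 were higher, against 3.80% on unjoined autosomes and 3.18% of all autosomal windows. In the same stretch none was lower on 8 and 12, 56 of 400 were lower on 1, 3, 9 and 14, of which 53 are on 14, and 1.71% were lower on unjoined autosomes. Near the far end, the last 5 Mb of the arms, 6.57%, 2.02% and 2.73% were higher in the same order. The first of these shares was 12.1% on chromosome 12 (12 windows) and 1.01% on 8 (1 window).

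Within a library the centromere end can be set against the rest of its own chromosome, which needs no scaling between libraries. The log2 ratio of the median window within the first 10 Mb to that beyond was 0.07, 0.07 and 0.05 in 3Rb for chromosome 8 and -0.05, -0.04 and -0.05 in Cg. For chromosome 9 it was -0.45, -0.42 and -0.42 in 3Rb against -0.67, -0.55 and -0.56 in Cg. All 3Rb libraries were above all Cg libraries on 1, 3, 7, 8, 9 and 13 and below them on 14, and the groups overlapped on the other 12 autosomes, 12 among them. Chromosome 12 had 0.07, 0.05 and 0.04 in 3Rb against 0.04, -0.02 and -0.02 in Cg. Over the first 5 Mb, the width of the first bins, the groups overlapped on chromosome 12 by this measure, with 0.24, 0.22 and 0.20 in 3Rb against 0.17, 0.23 and 0.23 in Cg. At that width all 3Rb libraries were above all Cg libraries on 1, 3, 8 and 9 and also on the unjoined 4, 10 and 13, and below them on 14 and the unjoined 18.

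Counts were also summed over sets of chromosomes and set against the unjoined autosomes beyond their first 10 Mb, in 5 such regions. The first 10 Mb of 8 and 12 were higher in 3Rb by 0.08 without overlap (two-sided exact permutation test over libraries, 3 against 3, p = 0.10, the smallest this design allows, adjusted p = 0.50). The first 10 Mb of 1, 3, 9 and 14 differed by 0.10 with overlapping groups (exact permutation p = 0.60, adjusted p = 1.0), and by 0.00075 without Cg replicate 1 and 0.17 without Cg replicate 2. A single window at the start of chromosome 9 took 3.43% to 3.49% of all counts in 3Rb and 2.69% to 3.60% in Cg. Without windows of unusual input that difference was 0.06 and all 3Rb libraries were above all Cg libraries (exact permutation p = 0.10, adjusted p = 0.25). For the first 10 Mb of the other autosomes it was 0.00 with all windows (exact permutation p = 1.0).

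Windows without a protein-coding gene had a higher median difference than those with genes. The median autosomal window with no gene was at 0.05, with 1 to 2 genes at -0.01 and with 3 or more at -0.04. Within the first 10 Mb of 8, 12, 1, 3 and 9 the medians were 0.14, 0.07 and -0.04 for the same classes. Within the first 10 Mb of the unjoined autosomes they were 0.05, 0.00 and -0.04, and beyond 13 Mb there (0.05, -0.01 and -0.04). The gradient between gene-rich and gene-free windows in the single libraries overlapped between 3Rb and Cg (values above), and its part in the counts of called windows was not tested.

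In 10 Mb bins 9 of 242 autosomal bins were higher (3.72%) and 3 were lower (1.24%). The higher bins at a centromere end were those of 8 (0.09 ± 0.01, adjusted p = 3.3e-04), 7 (0.09 ± 0.01, adjusted p = 0.0025) and 3 (0.08 ± 0.02, adjusted p = 0.039). Of these, 7 is unjoined. The first bins of the joined 1, 9, 12 and 14 were not called at this width, at which windows of unusual input were kept. Others were the bin from 13 to 23 Mb of 12 (0.09) and of 1 (0.06), from 113 Mb to the end of 12 (0.13), from 73 to 83 Mb of 2 (0.08), from 33 to 43 Mb of 14 (0.05) and from 23 to 33 Mb of 9 (0.04). The lower bins were from 93 to 103 Mb of 5 (-0.06), from 53 to 63 Mb of 4 (-0.05) and from 133 to 143 Mb of 6 (-0.03).

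Chromosome 7 is unjoined, and much of its centromere end is receptor gene clusters. Vomeronasal receptors are the pheromone receptors of the vomeronasal organ, and their genes form large, strain-variable tandem arrays. Between 8 and 13 Mb of chromosome 7, 19 of 38 windows with such genes were higher and none lower, with a median of 0.22. The 62 other windows there had 26 higher and 3 lower, with a median of 0.14. Vmn2r44 was highest at 0.67, where Cg input was below 1Rb_M input by 0.47, and Vmn2r45 followed at 0.58, where it was below by 0.07. Between 18 and 23 Mb the array went the other way, with 26 of 42 windows lower, a median of -0.23 and a median Cg input above 1Rb_M input by 0.18. Over all autosomes 60 of 324 vomeronasal windows were higher and 30 lower (median 0.10), and olfactory receptor windows, of which 31 of 575 were higher and 10 lower, had a median of 0.07, against 3.18% higher, 1.88% lower and a median of 0.01 for all autosomal windows.

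The largest autosomal difference was at Cwc22, a spliceosome factor whose locus on chromosome 2 is known for a segment that varies in copy number among mouse strains. Its window held 109, 105 and 102 CPM in the 3Rb libraries and 20.5, 21.7 and 21.9 CPM in Cg (chromosome 2, 77900001 to 77950000). The difference was 2.30 ± 0.06 (adjusted p = 2.4e-27), and 1Rb lay at 21.3, 20.8 and 20.3 CPM. Naip6 on 13, an inflammasome receptor of a tandem family, had 32.8, 33.2 and 33.9 CPM in 3Rb and 13.7, 13.01 and 14.7 CPM in Cg (1.28 ± 0.05). The window of Snrpn and Snurf on 7, an imprinted locus expressed from the paternal copy, had 21.3, 21.1 and 21.1 CPM against 11.6, 13.6 and 12.4 CPM (0.78 ± 0.05, adjusted p = 5.8e-15). Groups did not overlap in any of these windows, which the rule for naming windows required. At Cwc22, Naip6 and Snrpn, Cg input over 1Rb_M input was 0.06, -0.02 and 0.12 on the log2 scale. Over B6 input it was 0.11, 0.08 and 0.32. No DNA of 3Rb was among the inputs, so its DNA content at these windows was not tested.

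Further windows named as higher were Fbxw23 on 9 (0.89), Gm42346 on 4 (0.82), BC035044 and Clec2i on 6 (0.74), Tdpoz3 on 3 (0.74), Gm3072 (0.71) and Gm10376 (0.66) on 14, and LOC115490339 on 6 (1.10). They had Cg input within 0.18 of 1Rb_M input on the log2 scale. Cg input was above B6 input by 0.40 at Gm42346, 0.34 at LOC115490339 and 0.29 at BC035044 and Clec2i. At the others Cg input over B6 input was -0.11 to 0.21. Neither comparison includes DNA of 3Rb, so its DNA content at these windows was not tested. In the windows of 1600014C10Rik on 7 (1.64) and of Zfp932 on 5 (1.11), Cg input was lower than 1Rb_M input by 0.85 on the log2 scale in each. H3.3 of 1Rb was above Cg by 0.89 and 0.93 there. Over B6 input, Cg input was at 0.10 at 1600014C10Rik and at -0.89 at Zfp932. The part of DNA content in these windows was not tested.

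**Figure D4:**
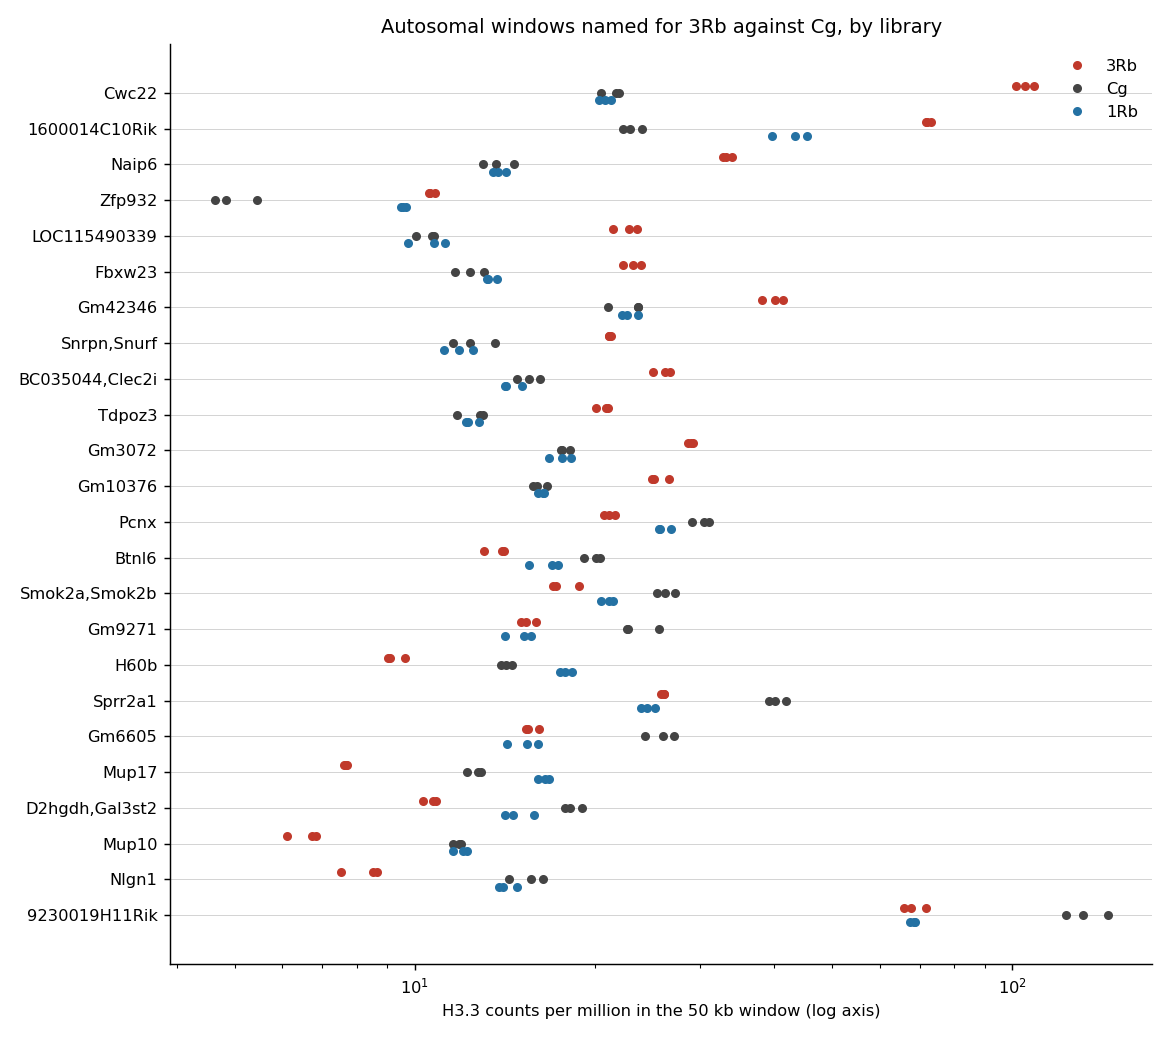
H3.3 in CPM (log axis) in each library for the autosomal windows with the smallest adjusted p in each direction, ordered by the log2 difference of 3Rb from Cg. The 3 libraries of 3Rb (red) lie apart from the 3 of Cg (grey) in every window, which the rule for naming windows required. At Cwc22 they reach 109 against 21.9 CPM. 1Rb (blue) lies with Cg at some windows and with 3Rb at others.

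Major urinary protein windows were mostly lower. These genes encode pheromone carriers that mouse liver and glands secrete, in a tandem array on chromosome 4. Of 25 windows with such genes 18 were lower and 2 higher, with a median of -0.64, beside 1.88% lower and 3.18% higher of all autosomal windows. In the 18 the median level was 7.07, 7.25 and 7.53 CPM in 3Rb, 12.1, 12.2 and 11.9 CPM in Cg and 12.8, 12.98 and 12.6 CPM in 1Rb. Mup10 had 6.83, 6.12 and 6.74 CPM in 3Rb and 11.9, 11.6 and 11.9 CPM in Cg (-0.85 ± 0.07, adjusted p = 4.9e-13), and Mup20, at the far edge of the array, was higher at 0.25 (adjusted p = 0.0066). Nlgn1, a synaptic adhesion gene on 3, was lower in a single window, at 7.52, 8.65 and 8.50 CPM in 3Rb against 14.4, 16.4 and 15.6 CPM in Cg (-0.89 ± 0.06).

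The other windows named as lower were D2hgdh and Gal3st2 (1: -0.80), 9230019H11Rik (10: -0.96), Gm6605 and Gm9271 (7: -0.71 and -0.61), H60b (10: -0.62), Sprr2a1 (3: -0.63), Smok2a and Smok2b, sperm motility kinases within the t complex region (17: -0.57), Btnl6 (17: -0.54) and Pcnx (12: -0.52). Cg input exceeded 1Rb_M input by over 0.5 on the log2 scale at 9230019H11Rik, Sprr2a1, Gm6605, Gm9271 and the Smok2 genes. Over B6 input, Cg input was at -1.27 at 9230019H11Rik, the other way, and at 0.41, -0.05, 0.13 and 0.08 at the rest in that order. Over all called autosomal windows past 0.5, 18 of the 99 higher ones had Cg input over 1.5 times below 1Rb_M input, and 16 of the 88 lower ones had it over 1.5 times above. Among the 45590 autosomal windows not called, 46 had inputs that far apart in either direction.

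Gene lists tied to spermatogenesis moved little, beside 3.18% of autosomal windows higher and 1.88% lower. Of 82 autosomal windows of meiotic prophase genes 1 was lower, that of Sycp1, a transverse filament protein of the synaptonemal complex, at -0.17 ± 0.05 (adjusted p = 0.034). Among 32 spermatid windows Zpbp and Crisp2, proteins of the acrosome, were lower at -0.17 and -0.16. Of 44 spermatogonial windows that of Uchl1 was lower at -0.17. None was called among 25 windows of sex body signalling genes, 25 of the H3.3 genes and their chaperones, 18 of the histone clusters or 26 of housekeeping genes, nor among 17 of Sertoli, 14 of Leydig and 20 of peritubular and blood cell markers. At an unadjusted p under 0.05 these lists with no call had 3 higher and 9 lower windows in all, and DESeq2 called none of them. List medians lay between -0.07 and 0.01. In an imprinted gene list of 92 windows 2 were higher, Snrpn with Snurf and Peg12 (0.18), and 4 were lower, of Tnfrsf23 with Osbpl5 (-0.44), of Tnfrsf22 with neighbours (-0.29) and a pair at Sfmbt2, a polycomb gene (-0.16 and -0.15). At the Tnfrsf23 and Tnfrsf22 windows Cg input was above 1Rb_M input by 0.47 and 0.33. H3.3 of 1Rb over Cg was -0.47 and -0.39 there, and the part of DNA content was not tested. Zinc finger genes had 21 of 553 autosomal windows higher and 24 lower, and 12 of the higher ones were on chromosome 4, among them Zfp987 at 0.64.

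Chromosomes 7 and 12 carry the segments that the control strain name gives. Beyond 123 Mb of chromosome 7 median Cg input was below B6 input by 0.14 and below 1Rb_M input by 0.08 on the log2 scale, and beyond 108 Mb of 12 by 0.08 and 0.07, against 0.01 or 0.02 above B6 on the rest of each. Such values were not particular to them: over the last 5 Mb Cg input was below B6 input by 0.18 on 11 and by 0.15 on 4, and below 1Rb_M input by 0.06 on both. H3.3 in those stretches was at -0.02 on 7 and at 0.01 on 12 (median log2 of 3Rb over Cg), with 9 windows higher and 5 lower of 447 on 7 and 31 higher and 5 lower of 241 on 12. On 12 the gain was the bin from 113 to 118 Mb at 0.14 ± 0.01 (adjusted p = 4.9e-05), which holds the immunoglobulin heavy chain locus. There 59 windows lack a protein-coding gene and the window of Adam6b was at 0.24, with Cg input below 1Rb_M input by 0.31.

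The median window of each sex chromosome was lower in 3Rb. Chromosome X took 6.06%, 5.65% and 5.47% of scaled counts in 3Rb and 6.03%, 6.20% and 6.38% in Cg, and the groups overlapped through 3Rb replicate 1. Summed over X the difference was -0.12 ± 0.04 (adjusted p = 0.085), and without 3Rb replicate 1 it was -0.17 (adjusted p = 0.0056). Of 3310 X windows 839 were lower and 48 higher, beside 6.16% lower and 3.34% higher of all 53117 windows tested. The 5 Mb bins of X had a median difference of -0.14, with 23 of 34 called lower. The 1Rb median on X was -0.12, close to the 3Rb median of -0.13. The one bin that was higher, from 123 to 128 Mb, rose by 0.67 and holds Srsx, a multicopy spermatid gene, with 48.2, 44.0 and 41.4 CPM in 3Rb, 17.5, 17.9 and 17.6 CPM in Cg and 6.81, 7.94 and 7.52 CPM in 1Rb. At the Srsx window Cg input was above 1Rb_M input by 1.06 on the log2 scale and above B6 input by 0.09. No DNA of 3Rb was among the inputs, and the part of copy number and mapping was not tested. Of 57 windows of multicopy X genes 12 were lower and 1, that of Srsx, was higher.

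Chromosome Y took 2.48%, 2.28% and 2.20% of scaled counts in 3Rb and 3.19%, 3.37% and 3.43% in Cg, without overlap (-0.52 ± 0.05, adjusted p = 2.2e-04). By the usual order of a cross, with the mother first, the Y of 3Rb comes from RBF/Dnj and that of Cg from B6.SPRET7MOLF12, so copy number and mapping of the Y cannot be told apart from H3.3 density. Of 1790 windows 1534 were lower and 201 higher, in blocks. The first 3 Mb, which hold the short-arm genes, had a median of -0.26 with 42 of 52 windows lower, and a 1Rb median of -0.11. Of 18 windows of short-arm genes 13 were lower, and the median of the 18 was -0.18. Called windows ranged from -0.62 to -0.17 at Usp9y and from -0.46 to -0.17 at Uty. A window shared by Ddx3y and Usp9y was at -0.27. These genes have partners on X. From 3 to 13 Mb the windows were mixed, with 107 of 190 higher and 57 lower. The share of counts there rose from 0.34% ± 0.01 in Cg to 0.60% ± 0.04 in 3Rb (SD, n = 3 each). The gains were led by Gm20830 with 128, 116 and 114 CPM against 15.3, 16.7 and 17.6 CPM, while the window of Gm21704 and Gm21708 was lower at -1.77. Beyond 13 Mb, in the amplified long arm, 1435 of 1548 windows were lower with a median of -0.93. Sly, a regulator of sex chromosome genes in spermatids, was lower at -1.46, and Ssty2 at -0.54, while Ssty1 (0.31) and Srsy (0.32) were higher.

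**Figure D5:**
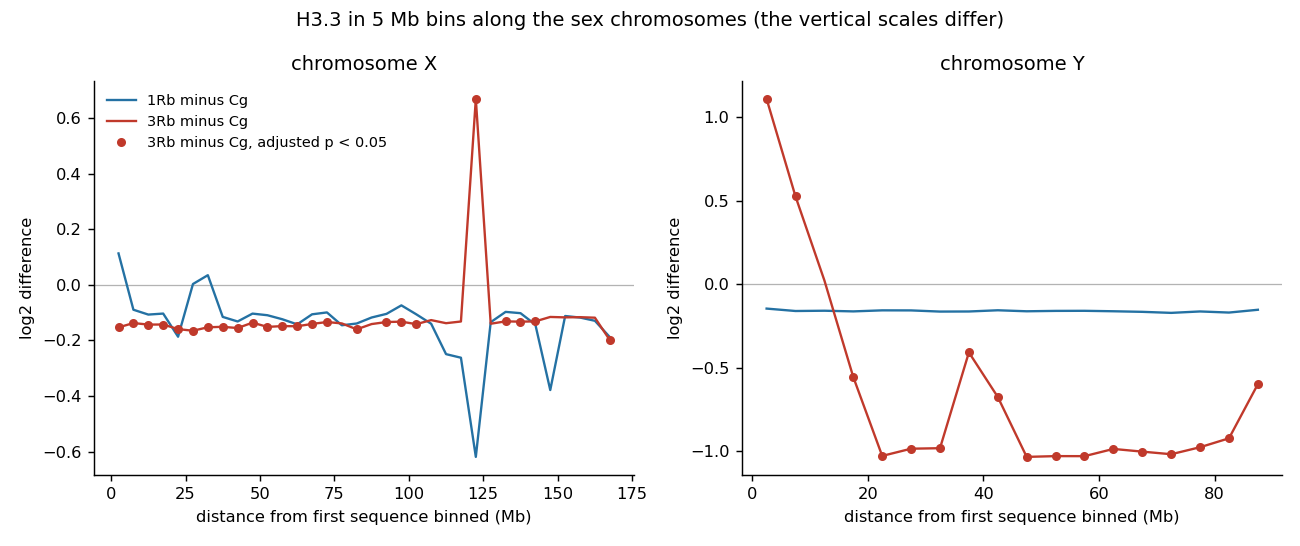
Log2 difference in H3.3 for 5 Mb bins along X (left) and Y (right) against distance in Mb from the first bin, for 3Rb minus Cg (red, filled points at an adjusted p under 0.05) and 1Rb minus Cg (blue). X lies near -0.14 in 3Rb but for one bin at 0.67, and Y starts at 1.11 and falls below -1 along the long arm in 3Rb while the 1Rb median window is at -0.16.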

How the data were processed

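The authors deposited counts of reads per 50 kb window as whole numbers, unnormalised, 1 file per library, for chromatin immunoprecipitation with sequencing of mouse testis. CASAVA 1.8 and BWA and the build mm10 are named in the submitters' processing notes; filters on mapping or duplicates are not given in the sources used here. Repeats and strain-specific copies can raise or lower a window through mapping alone. Each library took its group from its own title.

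The 9 H3.3 libraries were fitted with edgeR 4.0.16 (quasi-likelihood, R 4.3.3; trimmed mean of M-values, mean count per window 10 or more, contrast 3Rb minus Cg), per window, chromosome and bin, with p-values adjusted over each table. At the median window the counting error was 2.22% to 3.92% per library. Windows with pooled input over 5 or under 0.2 times the median were called of unusual input (1302 on autosomes). Gene symbols came from RefSeq (GRCm38.p6). The script was tested on simulated data. DESeq2 1.42.0, other scalings and filters and leaving out each library were alternatives.

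Named windows: called windows were merged where adjacent or 1 window apart, and those of lowest p were taken, 12 in each direction on autosomes and up to 3 on X and Y, at most 3 per chromosome, gene-bearing first, groups not overlapping, usual input. Up to 4 members of a list are named. Genes leading the 5 Mb bins, the bins themselves and called members of short lists were chosen after their values were seen. Members and gene lists were chosen with earlier results of these data known.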

Additional observations from a re-analysis of the deposited data

How the results depend on the processing

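Named windows kept direction and call under all of their alternatives, DESeq2 included. By setting, autosomal windows higher numbered 989 with the replicate block and 700 to 1657 when a library was left out (lower: 547 to 1031); over all chromosomes the higher count was 948 to 1908 and the lower count 2225 to 4638 when a library was left out. Chromosomes called higher numbered 1 with library totals, 0 with scaling on autosomal windows (16 then at -0.00018), 1 without windows of unusual input, 1 with the replicate block and 0 to 2 with a library left out (lower: 1 to 2). Autosomal 10 Mb bins higher and lower numbered 31 and 1 with library totals and 4 and 1 with the replicate block; scaling on autosomal windows gave 10 lower, and leaving out a library gave 4 to 7 higher and 1 to 7 lower. Of 5 Mb bins, 31 were lower with scaling on autosomal windows, 10 were higher and 6 lower with the replicate block, and 11 to 18 were higher and 6 to 12 lower with a library left out. First bins of joined chromosomes called higher numbered 3 with windows of unusual input, 2 with the replicate block and 2 to 5 with a library left out; of unjoined autosomes 2 were lower with scaling on autosomal windows and 0 to 1 with a library left out. The region of the first sequence of the other autosomes turned to -0.0099 at 5 Mb, and that of the rest of 1, 3, 9 and 14 to -0.0018 at 20 Mb; with a library left out they were -4.1e-05 to 0.0046 and -0.0030 to 0.0058. The cause was not tested. Same-numbered 3Rb and Cg libraries correlated in their deviations at 0.22, 0.16 and 0.00 over autosomal windows, so numbers were not taken as pairs (3Rb replicate 3 correlated best with Cg replicate 2, at 0.13); with the replicate block 1633 of 2427 autosomal calls were kept. Depth left a counting error of up to 3.92% at the median window, which limits single windows and less so bins, which sum many windows.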
